A study of Homo sapiens with 4 samples.

Results

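The aldo-keto and carbonyl reductases described here are 10 genes, AKR1A1, AKR1B1, AKR1B10, AKR1C1, AKR1C2, AKR1C3, AKR7A2, CBR1, CBR3 and CBR4, taken by gene symbol from the 20809 targets of an amplicon RNA sequencing assay. All 10 were among the targets, and 9 of them passed the filter on low values that left 12118 genes for testing. AKR1C3 did not pass it. RNA was measured in MDA-MB-468, a human breast cancer cell line of basal type that lacks the hormone receptors and HER2. The drug-resistant subline, MDA-MB-468/R (R cells), was labelled as treated with adriamycin (doxorubicin), taxotere (docetaxel) and cytoxan (cyclophosphamide) for 6 months. Per the methods it was raised from the parental line under increasing drug concentrations and then given a further month to recover. The methods do not say whether the RNA was taken before or after that month. The comparison line, MDA-MB-468/WT (WT cells), was labelled wild-type with no treatment, although the protocol text attached to its samples names the same drugs. Each group had 2 libraries. The paper's text calls its resistant sublines clones, but its methods describe no step that isolates a clone. No source used here says whether the 2 libraries of a group came from separate cultures, so the p-values speak only of how far these libraries vary, possibly for technical reasons alone.

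Aldo-keto reductases are soluble enzymes that use NADPH to reduce aldehydes and ketones to alcohols, and the carbonyl reductases do the same chemistry with an unrelated fold, that of the short-chain dehydrogenases. Their substrates include lipid aldehydes, quinones, steroids, prostaglandins and sugars. Several of them also reduce the side-chain ketone of doxorubicin to doxorubicinol, an alcohol that is less toxic to tumour cells. In breast tissue the AKR1C enzymes are best known for converting progesterone, androgens and estrogens to more or less active forms. The question put to the data was which of these genes differed in RNA level between R cells and WT cells.

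The libraries held 6841750 to 7978141 reads, so that 3 reads, the floor used here for a gene without reads, correspond to 0.376 to 0.438 RPM (reads per 1000000 reads of the library on the targets). All 9 epithelial and basal-type markers had reads in every library, with a summed level of 10856 to 13038 RPM, while ESR1, PGR and ERBB2 together came to 8.27 to 13.8 RPM. Of 11 leukocyte, fibroblast and endothelial markers, 6 were at 0 in all 4 libraries, PTPRC among them, and the sum of 81.5 to 105 RPM was mostly CD14 and COL1A1. KRT17 and KRT5 were lower in R cells, by log2 differences of -1.22 and -0.77, and CDH5 fell from 18 and 22 reads to 0 and 1, calls that were lost in limma without WT replicate 1 (0.0800, 0.162 and 0.0742) or 2 (0.0786, 0.179 and 0.0781). Their part in the results on the reductases was not tested. The 2 R libraries differed from each other by more than the 2 WT libraries did, with a mean chi-squared per gene of 12.3 against 1.67. Of the 12118 tested genes, 1939 (16.0%) passed an adjusted p of 0.05 in limma, 649 (5.36%) higher in R cells and 1290 (10.6%) lower, a split that became 884 and 1108 after quantile normalisation. A differentially expressed gene (DEG) also needed a fold change of at least 2.5, which left 98 DEGs up (0.809%) and 297 down (2.45%), 3.26% in all.

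The reductases moved in both directions. AKR1C1 and AKR1C2 rose about 3-fold in R cells and were DEGs, and AKR7A2 rose by less. AKR1B1 fell about 3-fold and was a DEG, and CBR3 fell by about 2-fold. The remaining tested genes, AKR1A1, AKR1B10, CBR1 and CBR4, did not pass the test. Thus 3 of 9 tested genes were higher against 5.36% of all tested genes, and 2 of 9 were lower against 10.6%. DEGs were 3 of the 9, against 3.26% of all tested genes. These genes were chosen with earlier results of these data known, so the shares are descriptions and no test of the group. AKR1C1 and AKR1C2 are also near copies, and whether reads were split between them was not tested. The 9 genes had a median log2 fold change of 0.045, against -0.03 over all tested genes. The 2 libraries of R cells lay outside the range of the 2 WT libraries for 5 of the 9 genes, above it for 3 and below it for 2. That share is close to the 58.3% of all tested genes without overlap, 26.1% with R above and 32.2% with R below. In RNA from a bulk culture, fewer cells that use a gene and less of its RNA per cell cannot be told apart.

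**Figure D1:**
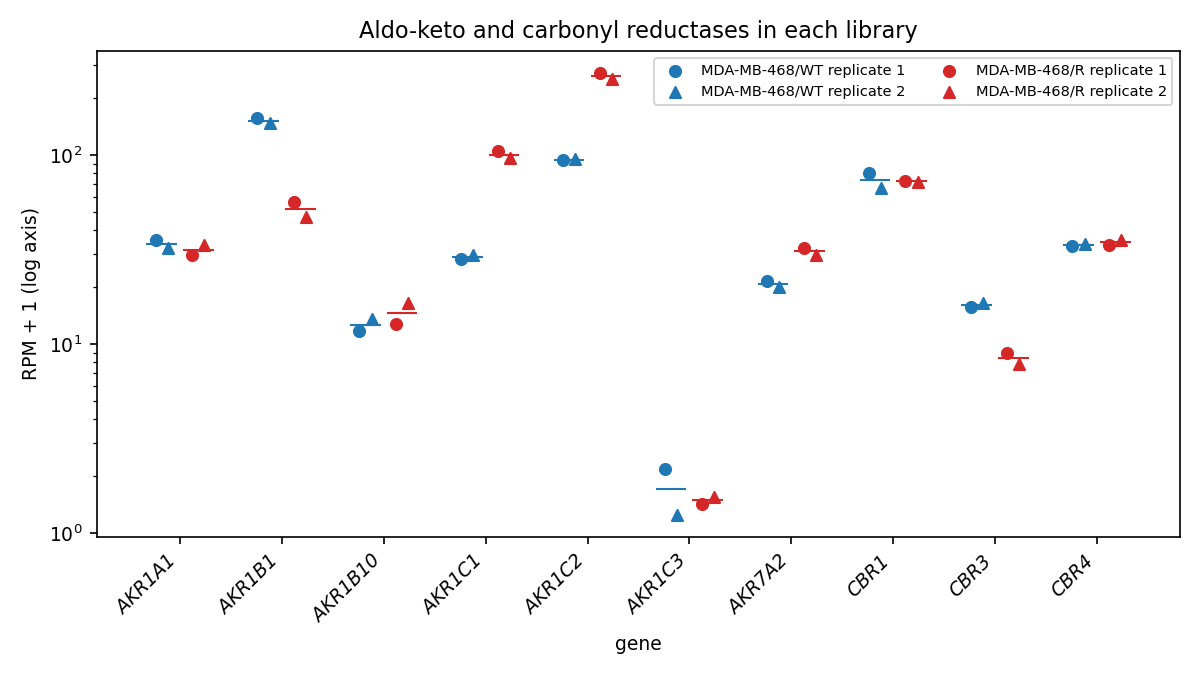
RPM plus 1 on a log axis for each of the 10 genes, with a point for each library (blue for WT cells, red for R cells) and a line at each group mean. Red points lie above blue ones for AKR1C1, AKR1C2 and AKR7A2 and below them for AKR1B1 and CBR3, and AKR1C3 lies at 0.248 to 1.17 RPM.

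**Figure D2:**
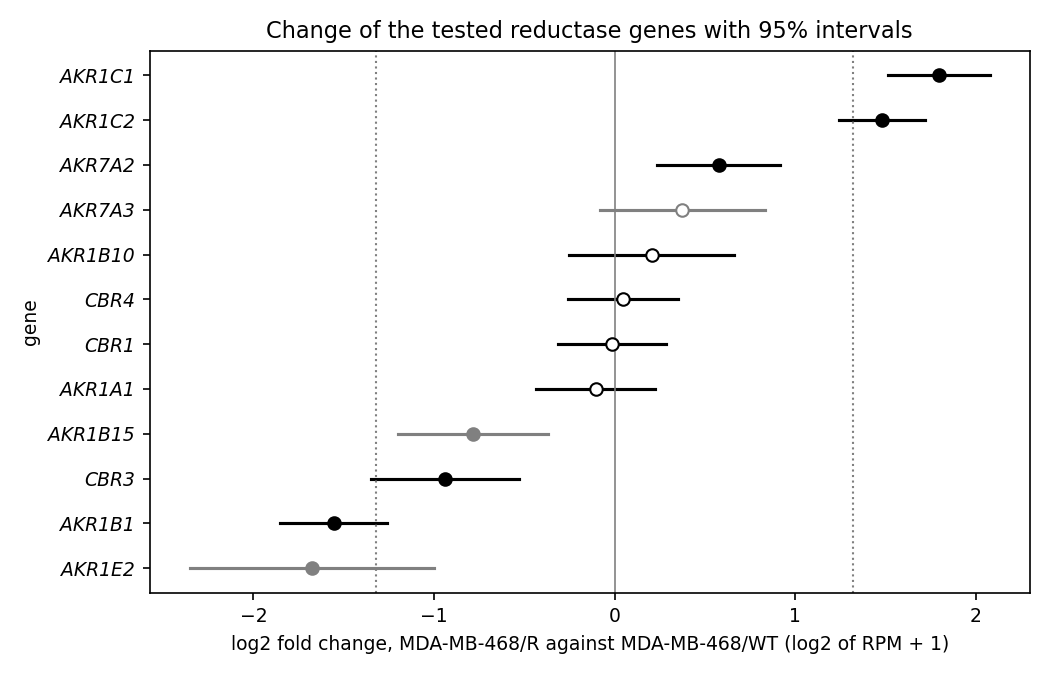
Log2 fold change of R cells against WT cells with its 95% interval, for the 9 tested reductases (black) and 3 related genes of the aldo-keto reductase family (grey). Filled points passed the adjusted p of 0.05 and dotted lines mark a fold change of 2.5, which AKR1C1, AKR1C2, AKR1B1 and AKR1E2 exceeded.

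AKR1C1, AKR1C2 and AKR1C3 are neighbouring copies on chromosome 10 that turn steroids over at different positions. AKR1C1 is the main enzyme that inactivates progesterone, AKR1C2 inactivates dihydrotestosterone, and AKR1C3 makes testosterone and prostaglandin F. The 250 bases before their annotated starts (RefSeq, GRCh38.p14) are printed 5′ to 3′ on the strand of each gene. AKR1C1 and AKR1C2 share nearly all of this stretch and AKR1C3 does not. Any link between this stretch and the RNA levels was not tested, and AKR1C3 had too few reads to be tested for a change. Capitals in AKR1C1 and AKR1C2 mark their longest identical run, and capitals in AKR1C3 mark the 2 runs, equal in length, that are the longest it shares with AKR1C1.
AKR1C1, chr10:4963165-4963414, plus strand: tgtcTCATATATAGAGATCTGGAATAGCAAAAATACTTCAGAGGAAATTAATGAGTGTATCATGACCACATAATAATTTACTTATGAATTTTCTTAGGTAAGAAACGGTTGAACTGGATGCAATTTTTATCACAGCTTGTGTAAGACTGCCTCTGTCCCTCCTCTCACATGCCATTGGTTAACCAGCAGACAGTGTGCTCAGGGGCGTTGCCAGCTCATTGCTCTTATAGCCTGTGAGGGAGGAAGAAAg
AKR1C2, chr10:5003858-5004107, minus strand: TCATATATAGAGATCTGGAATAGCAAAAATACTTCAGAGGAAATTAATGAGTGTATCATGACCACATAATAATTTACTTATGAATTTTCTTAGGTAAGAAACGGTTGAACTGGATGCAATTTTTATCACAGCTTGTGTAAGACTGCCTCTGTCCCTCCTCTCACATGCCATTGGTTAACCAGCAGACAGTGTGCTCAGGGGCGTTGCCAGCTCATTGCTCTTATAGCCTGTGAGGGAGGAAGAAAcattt
AKR1C3, chr10:5048531-5048780, plus strand: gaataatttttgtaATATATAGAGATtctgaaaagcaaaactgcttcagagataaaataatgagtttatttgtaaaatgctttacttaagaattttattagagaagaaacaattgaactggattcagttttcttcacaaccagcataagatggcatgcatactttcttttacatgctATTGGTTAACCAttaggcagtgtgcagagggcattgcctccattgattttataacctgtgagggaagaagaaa
The run shared by AKR1C1 and AKR1C2 was 245 bases long, and their promoters were 99.59% identical over 246 aligned bases. Against AKR1C3, the AKR1C1 promoter was 75.93% identical over 241 aligned bases, with 2 longest shared runs of 12 bases.

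The transcripts are alike as well, which bears on how reads can be told apart. In GENCODE v29 the coding sequences of AKR1C1 and AKR1C2 are both 972 bases long and differ at 19 of them (98.05% identical), while AKR1C3 differs from AKR1C1 at 83 (91.46% identical). Coding bases 63 to 162 of each gene are printed 5′ to 3′, with capitals where AKR1C2 or AKR1C3 differs from AKR1C1. These 100 bases were picked as the window with the most differences between AKR1C1 and AKR1C2, so they overstate how far that pair differs elsewhere.
AKR1C1: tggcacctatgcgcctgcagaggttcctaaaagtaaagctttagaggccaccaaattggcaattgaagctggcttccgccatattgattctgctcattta
AKR1C2: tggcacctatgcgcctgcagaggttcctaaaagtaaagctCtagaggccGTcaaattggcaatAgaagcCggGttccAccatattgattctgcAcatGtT
AKR1C3: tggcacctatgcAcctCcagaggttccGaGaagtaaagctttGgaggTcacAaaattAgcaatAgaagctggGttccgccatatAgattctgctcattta
In this window AKR1C2 has 10 of its 19 differences from AKR1C1 and AKR1C3 has 11 of its 83. Of the 873 windows of 100 bases in the AKR1C1 coding sequence, 167 were identical at the same place in AKR1C2. The longest run shared by the AKR1C1 and AKR1C2 transcripts was 437 bases, and 31.06% of the 100-base windows of the AKR1C2 transcript occurred in that of AKR1C1. The assay reads a single short amplicon per gene. The amplicon positions were not analysed here, so whether reads were split between AKR1C1 and AKR1C2 was not tested, and their values are uncertain to that extent.

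AKR1C1 was read at 103.7 and 95.3 RPM in R cells and at 27.2 and 28.7 RPM in WT cells. Both resistant libraries were more than 3 times as high as either wild-type library. The group means of 99.5 ± 5.91 and 27.9 ± 0.993 RPM (SD, n = 2 each) differed 3.56-fold. On the log2(RPM + 1) scale the difference was 1.80 (SE 0.12, 95% interval 1.51 to 2.08, limma adjusted p = 2.01e-04). It ranked 42 by size among the increases of all tested genes. Without WT replicate 1 or 2 its adjusted p was 0.0529 or 0.0536 in limma, at log2 differences within the range of 1.70 to 1.86 found over all 13 alternatives. With a WT library left out, 11 or 9 genes of the whole table were still called higher.

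AKR1C2 gave 271.5 and 253.2 RPM in R cells and 92.7 and 94.0 RPM in WT cells. Here too the groups stood clear of each other, with little spread within either. Mean levels were 262 ± 12.9 RPM against 93.4 ± 0.925 RPM (SD, n = 2 each), a 2.81-fold increase and a log2 difference of 1.48 (SE 0.10, 95% interval 1.24 to 1.72, limma adjusted p = 2.05e-04). This was rank 63 among the increases. Without WT replicate 1 or 2 the limma adjusted p was 0.0549 or 0.0593.

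AKR1C3 stood apart from these in having hardly any reads, 3 and 4 in R cells and 8 and 2 in WT cells. The summed 7 reads against 10 gave a ratio of RPM of 0.724 with an exact 95% counting interval of 0.234 to 2.11, which includes both a 2-fold rise and a 4-fold fall. Few reads in this assay do not show that a gene is off. TXNRD1, the thioredoxin reductase that nearly all cells use, had 0 and 8 reads in R cells and 5 and 0 in WT cells, and CYB5R3, another widely used reductase, had 1 read in all. AKR1C4, the liver copy of the same cluster, had 0 reads in every library.

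The balance between members was read as a log2 ratio of RPM + 1 within each library. AKR1C1 to AKR1C2 was -1.38 and -1.40 in R cells and -1.73 and -1.68 in WT cells, so AKR1C1 gained on AKR1C2 by 0.315. Both resistant ratios were above both wild-type ratios, and the shift was 0.244 with 4 RPM added before the logarithm and 0.335 with 0.25 RPM. AKR1C1 to AKR1C3 was 6.19 and 5.96 in R cells against 3.70 and 4.57 in WT cells, a difference of 1.94 that includes the few AKR1C3 reads. In each case the exact two-sided permutation test gave p = 0.333, the smallest p that 2 libraries against 2 allow. The levels of different genes were not compared as such, since each gene is read through its own amplicon and neither the amplicons nor their efficiencies were known here.

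AKR1B1, AKR1B10 and the related AKR1B15 lie together on chromosome 7. AKR1B1 is aldose reductase, which turns glucose into sorbitol as the entry to the polyol pathway and also reduces prostaglandin H to prostaglandin F. It was read at 55.5 and 46.2 RPM in R cells and at 155 and 146 RPM in WT cells. The resistant libraries were both about a 3-fold step below the wild-type libraries. Means were 50.8 ± 6.59 RPM and 151 ± 6.69 RPM (SD, n = 2 each), 2.97-fold lower in R cells, with a log2 difference of -1.56 (SE 0.13, 95% interval -1.85 to -1.26, limma adjusted p = 4.12e-04). AKR1B1 ranked 208 by size among all decreases and was the DEG down among the 10 genes. Without WT replicate 1 or 2 the limma adjusted p was 0.0708 or 0.0663.

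AKR1B10, a retinal and lipid aldehyde reductase often found in tumours, had 11.7 and 15.6 RPM in R cells and 10.7 and 12.5 RPM in WT cells. The groups overlapped, and the log2 difference was 0.21 (95% interval -0.25 to 0.66, limma adjusted p = 0.526), an interval that includes no change and an increase of up to 0.66. AKR1B15, the gene beside it, is not among the 10 but is a close copy of it, 92.64% identical in coding sequence with a shared run of 116 bases. It had 39 and 43 reads in R cells against 74 and 83 in WT cells, and fell by 0.79 on the log2 scale (limma adjusted p = 0.0247). Whether reads were split between this pair was not tested. Leaving out R replicate 1 or 2 gave AKR1B15 a limma adjusted p of 0.0532 or 0.0503, and leaving out a WT library gave up to 0.313. AKR1B1 and AKR1B10 are more distant, at 76.77% coding identity with no 100-base window in common.

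AKR7A2, on chromosome 1, reduces succinic semialdehyde and the dialdehyde of aflatoxin. Its level was 31.4 and 28.4 RPM in R cells and 20.6 and 19.0 RPM in WT cells. Both resistant libraries were above both wild-type libraries, by a smaller step than for the AKR1C genes. The means were 29.9 ± 2.12 and 19.8 ± 1.12 RPM (SD, n = 2 each), 1.52-fold higher in R cells, with a log2 difference of 0.57 (SE 0.14, 95% interval 0.24 to 0.91, limma adjusted p = 0.0356). AKR7A2 lost its call under more alternatives than the other 4 called genes. Its limma adjusted p exceeded 0.05 whichever library was left out, at 0.0675 and 0.0515 without R replicates 1 and 2 and at 0.334 and 0.409 without WT replicates 1 and 2. AKR7A3, its neighbour and 91.77% identical copy, had 39 and 38 reads against 27 and 31, a log2 difference of 0.38 that did not pass (limma adjusted p = 0.238).

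Letters that match the core of the antioxidant response element (ARE), the site bound by NRF2, were searched, with 4 other motifs and on both strands, in the same 250 bases for the 8 genes found in the promoter table. AKR1B10 and CBR3 were not matched. The ARE core was taken as TGACNNNGC with first letters that the AP-1 motif TGANTCA shares. It was found in 2 of the 8 promoters, 3 times in AKR7A2 and once in CBR1, and in 10.9% of 35116 promoters of the same length. The AKR7A2 promoter is printed for its 3 matches, shown in capitals.
AKR7A2, chr1:19312147-19312396, minus strand: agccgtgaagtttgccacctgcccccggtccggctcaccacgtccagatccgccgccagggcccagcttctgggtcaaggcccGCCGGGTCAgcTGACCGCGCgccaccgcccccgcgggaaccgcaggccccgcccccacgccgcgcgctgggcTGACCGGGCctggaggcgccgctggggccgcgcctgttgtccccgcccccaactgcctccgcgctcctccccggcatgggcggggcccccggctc
The TGANTCA letters were in none of the 8 and in 6.57% of all promoters, GGGCGG in 4 of 8 and 42.6%, TATAAA in 1 of 8 (AKR1C3) and 10.7%, and CACGTG in 2 of 8 and 6.34%. No letters of these 5 motifs were in the windows of AKR1C1 or AKR1C2. Such matches describe the letters of the windows and say nothing of which factor acts there.

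AKR1A1, the general aldehyde reductase, had 28.7 and 32.6 RPM in R cells and 34.5 and 31.4 RPM in WT cells. These ranges overlapped, with a log2 difference of -0.10 (95% interval -0.43 to 0.22, limma adjusted p = 0.663). AKR1A1 is also on chromosome 1, and its coding sequence is 55.36% to 61.41% identical to those of the other AKR1 genes among the 10.

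CBR1 and CBR3 are neighbouring copies on chromosome 21. CBR1 reduces quinones, prostaglandin E and anthracyclines, and CBR3 is its less studied paralog with a narrower activity. CBR1 was read at 72.0 and 71.5 RPM in R cells and at 79.4 and 66.2 RPM in WT cells. The resistant values sat between the wild-type ones, at a log2 difference of -0.02 (SE 0.13, limma adjusted p = 0.953), whose sign changed with the processing. The 95% interval of -0.31 to 0.28 leaves out changes beyond those bounds in either direction.

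CBR3 had 8.0 and 6.84 RPM in R cells and 14.8 and 15.4 RPM in WT cells. Both R libraries lay well below both WT libraries. The means of 7.42 ± 0.824 and 15.1 ± 0.474 RPM (SD, n = 2 each) differed 2.04-fold, short of the DEG limit, with a log2 difference of -0.94 (SE 0.17, 95% interval -1.35 to -0.53, limma adjusted p = 0.0122). Without WT replicate 1 or 2 the limma adjusted p was 0.226 or 0.252. CBR1 to CBR3 as a log2 ratio within a library was 3.02 and 3.21 in R cells and 2.35 and 2.03 in WT cells. The balance thus moved toward CBR1 by 0.925 (exact two-sided permutation p = 0.333, the smallest possible here), with values of 0.730 to 0.991 under other pseudocounts. Their coding sequences are 76.98% identical, with a longest shared run of 49 bases and no 100-base window in common.

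CBR4, on chromosome 4, is the mitochondrial member, a subunit of the ketoacyl reductase of mitochondrial fatty acid synthesis. At 32.4 and 34.8 RPM in R cells and 32.1 and 32.8 RPM in WT cells it showed no separation between groups. The log2 difference was 0.04 (95% interval -0.26 to 0.35, limma adjusted p = 0.851).

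The genes beside the 5 called reductases were read as the nearest 5 tested genes on each side. These need not be adjacent, and they spanned from 836 kb around AKR7A2 to 4630 kb around AKR1C1. For comparison, 10.6% of all tested genes were called lower and 5.36% higher. Around AKR1C1, AKR1C2 was the gene that rose, and 4 of the 9 neighbours that are not members fell, PFKP by 1.01, KLF6 by 1.09, AKR1E2 by 1.68 and CALML5 by 0.89 on the log2 scale, with a median of -0.60 over the 9. The rise of AKR1C1 and AKR1C2 therefore lay in a stretch where no other tested neighbour was called higher. On chromosome 10 as a whole, 16 of 450 tested genes were higher (3.56%) and 46 lower (10.2%). Around AKR1B1, AKR1B15 and BPGM (-0.56) fell and the median of the 9 other genes was 0.13. Around AKR7A2, PLA2G2A (-0.94) fell and the median of 10 was -0.07. Around CBR3, RUNX1 (-3.08), CHAF1B (-0.46) and SIM2 (-0.68) fell, and the median of the 9 genes that are not members was -0.50. The RUNX1 value moved between -1.52 with 4 RPM added and -6.74 in limma-voom, that of PLA2G2A was -0.47 with 4 RPM added, and CHAF1B lost its call without a mean trend (limma adjusted p = 0.0705). Chromosome 21 as a whole leaned the same way as CBR3. Of its 111 tested genes, 35 were lower (31.5%) and 3 higher, with a median of -0.37. Over 11841 placed genes 1264 were lower and 640 higher, with a median of -0.03. Chromosome X leaned further down, with 139 of 380 tested genes lower (36.6%), 8 higher and a median of -0.45. Of the neighbours with a call that are not members, RUNX1 kept it in limma without WT replicate 1 or 2, and PLA2G2A lost it without R replicate 1 (0.0724) or 2 (0.0558), as did SIM2 without R replicate 2 (0.0567). CBR3 lies below the median of chromosome 21 and CBR1 above it. The part of chromosome 21 in the CBR3 result was not tested.

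**Figure D3:**
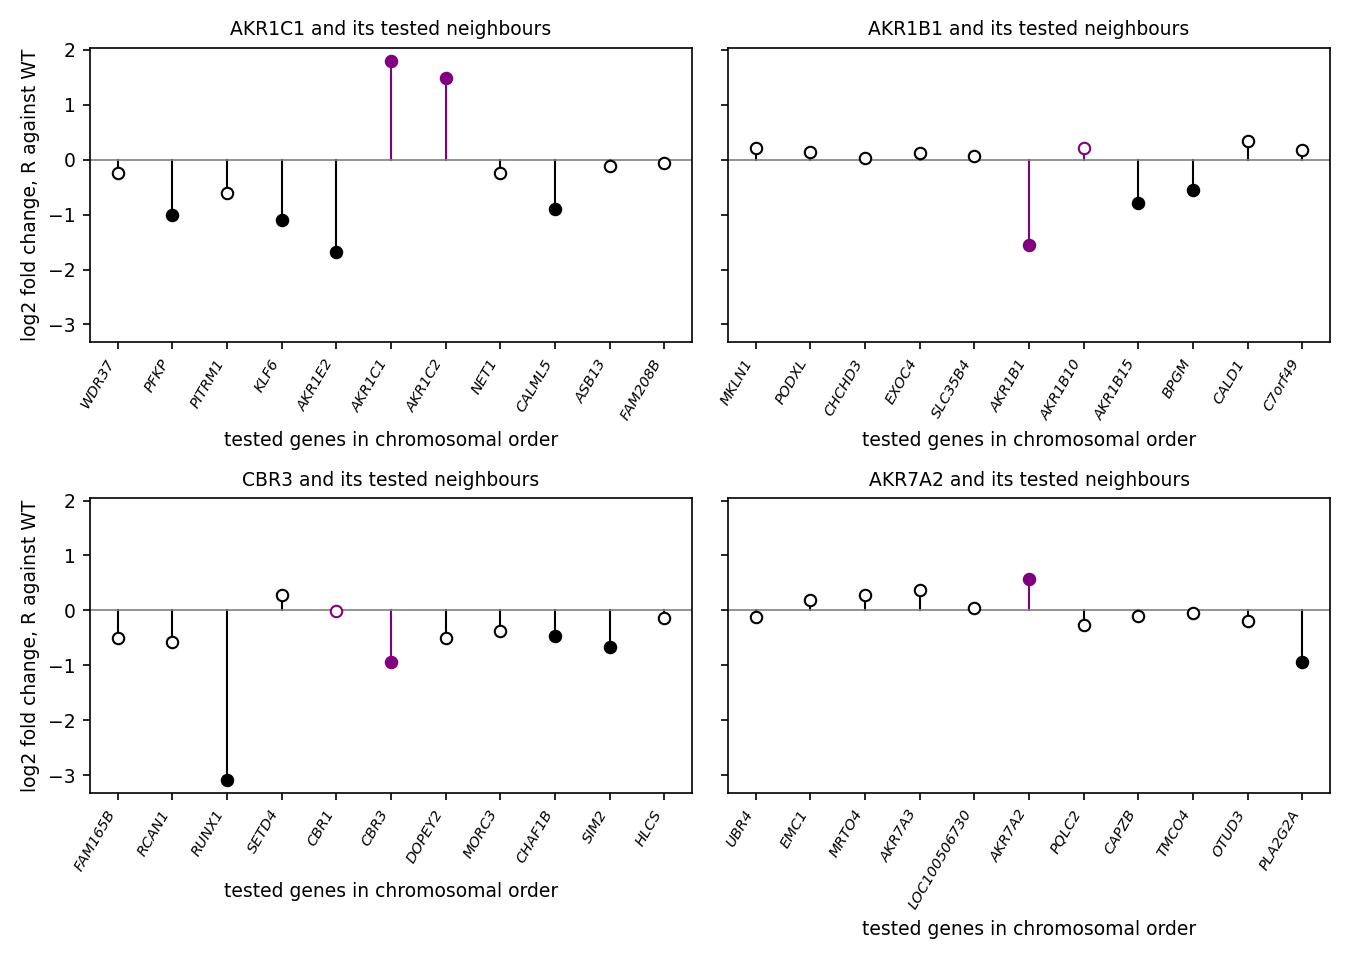
Log2 fold change of AKR1C1, AKR1B1, CBR3 and AKR7A2 (purple, with other members) and of the nearest 5 tested genes on each side (black) in chromosomal order. Filled neighbours passed the adjusted p of 0.05, and AKR1C1 and AKR1C2 stand up among 9 genes with a median of -0.60.

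The genes with profiles most like each called member were found by the Euclidean distance of the 4 centred log2 values. For AKR1C1 they were VEPH1 (0.0805), C4A (0.132) and TPM2 (0.136), and for AKR1C2 PRLR (0.0424), TRERF1 (0.0589) and TCEA3 (0.0853). AKR7A2 was nearest to CLCN7 (0.0300), GAS7 (0.0357) and KCNK5 (0.0374). Among the genes that fell, AKR1B1 was nearest to IFIT2 (0.0698), DUSP5 (0.0768) and COL4A1 (0.0819), and CBR3 to C1orf106 (0.0490), CDKN2D (0.0589) and CASP14 (0.0622). No member was among the 3 nearest of another member. With 4 libraries this is a likeness in size and spread of the difference on the log2(RPM + 1) scale and no more. That scale understates the change of low genes. COL4A1 had mean levels of 0.422 RPM in R cells and 3.24 RPM in WT cells, a larger ratio than that of AKR1B1. VEPH1 had 5.11 RPM in R cells and 0.741 RPM in WT cells, a larger ratio than that of AKR1C1.

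Of the other aldo-keto reductase family genes, 5 were tested, none was higher and 2 were lower, with a median log2 fold change of -0.60. AKR1E2, a reductase of a sugar anhydride that lies beside AKR1C1, had 1 and 6 reads in R cells against 27 and 26 in WT cells. It thus passed the filter on low values through WT cells alone. Its summed 7 against 53 reads gave a ratio of RPM of 0.137 (exact 95% counting interval 0.0524 to 0.302), and the log2 difference was -1.68 (limma adjusted p = 0.00936). That value moved between -0.77 with 4 RPM added and -3.04 in limma-voom. Leaving out R replicate 1 gave a limma adjusted p of 0.0515, and leaving out a WT library up to 0.182. AKR1B15 was the other decrease.

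The short-chain carbonyl reductases other than the CBR genes had 24 tested members, none higher and 3 lower, with a median of 0.17. After quantile normalisation, or without R replicate 1 or 2, 1 was higher. RDH10, which oxidises retinol to retinal, fell from 213 and 210 RPM to 50.6 and 55.5 RPM, a log2 difference of -1.98 (limma adjusted p = 8.41e-05) and a DEG. DHRS3, which reduces retinal back to retinol, fell by 0.74 and DHRSX by 0.72 on the log2 scale. Among 17 tested quinone and single-electron reductases, 1 was higher and 4 were lower, with a median of -0.15. Under RLE scaling, quantile normalisation, no mean trend or without R replicate 2, 2 were higher. NQO1, the quinone reductase that is a classical NRF2 target, rose from 163 and 166 RPM to 303 and 251 RPM, a log2 difference of 0.75 (limma adjusted p = 0.00673) that placed it below the AKR1C genes and above AKR7A2. AOX1 (aldehyde oxidase), CRYZL1, XDH (xanthine dehydrogenase) and TP53I3 fell, by 1.81, 1.05, 1.02 and 0.81 on the log2 scale, AOX1 as a DEG with 2 and 6 against 27 and 38 reads. AOX1 passed the filter on low values through WT cells alone, and its value moved between -0.88 with 4 RPM added and -2.97 in limma-voom. Of the calls named in this paragraph, that of RDH10 was kept in limma without WT replicate 1 or 2 and the others were lost. Without R replicate 1 or 2, DHRSX (0.0517 and 0.0589) and TP53I3 (0.0583 and 0.0546) lost theirs as well.

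Since AKR1C enzymes act on steroids, the steroid dehydrogenases were read beside them. Of 14 tested, 2 were higher and 2 lower, with a median of 0.04. Without the mean trend 0 were lower, and with no filter on low values 1 was higher. HSD17B2, which oxidises estradiol and testosterone to weaker forms, rose from 3.23 and 2.25 RPM to 17.3 and 15.4 RPM, a log2 difference of 2.23 (limma adjusted p = 7.21e-04) and a DEG. HSD17B1, which makes estradiol, rose by 0.80 on the log2 scale from 31 reads in each wild-type library to 60 and 55. HSD17B10, a mitochondrial enzyme, and HSD17B12, which works in fatty acid elongation, fell by 0.60 and 0.45 on the log2 scale. Without a WT library none of these 4 kept its call in limma, and HSD17B1 also lost it without R replicate 1 (0.0854) or 2 (0.0655).

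NADPH, the cofactor of all 10 enzymes, is supplied mainly by the pentose phosphate pathway, malic enzyme and isocitrate dehydrogenase. Of 16 tested genes of this supply, 0 were called in limma and 0 in limma-voom, and 2 had an unadjusted p under 0.05. Without R replicate 1 or 2, limma called 2 higher. Their median log2 difference was 0.10. ME1, the cytosolic malic enzyme, had the lowest value of the list, -0.38, and did not pass. The list for the polyol pathway and prostaglandin F synthesis, in which AKR1B1 acts, had 9 tested genes, 0 higher and 2 lower, with a median of -0.19. It also held genes outside these 2 pathways, PTGES among them, so its counts and median do not describe them alone. After quantile normalisation or with no filter on low values 1 was lower. PTGES, a prostaglandin E synthase, fell by 1.23 (limma adjusted p = 0.00543) and FAM213B, a prostaglandin F synthase, by 0.68 (limma adjusted p = 0.0410). SORD, which takes sorbitol on to fructose, differed by 0.19 with overlapping groups and did not pass. Both PTGES and FAM213B lost their calls in limma without WT replicate 1 or 2, and FAM213B also without R replicate 2 (0.0693).

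**Figure D4:**
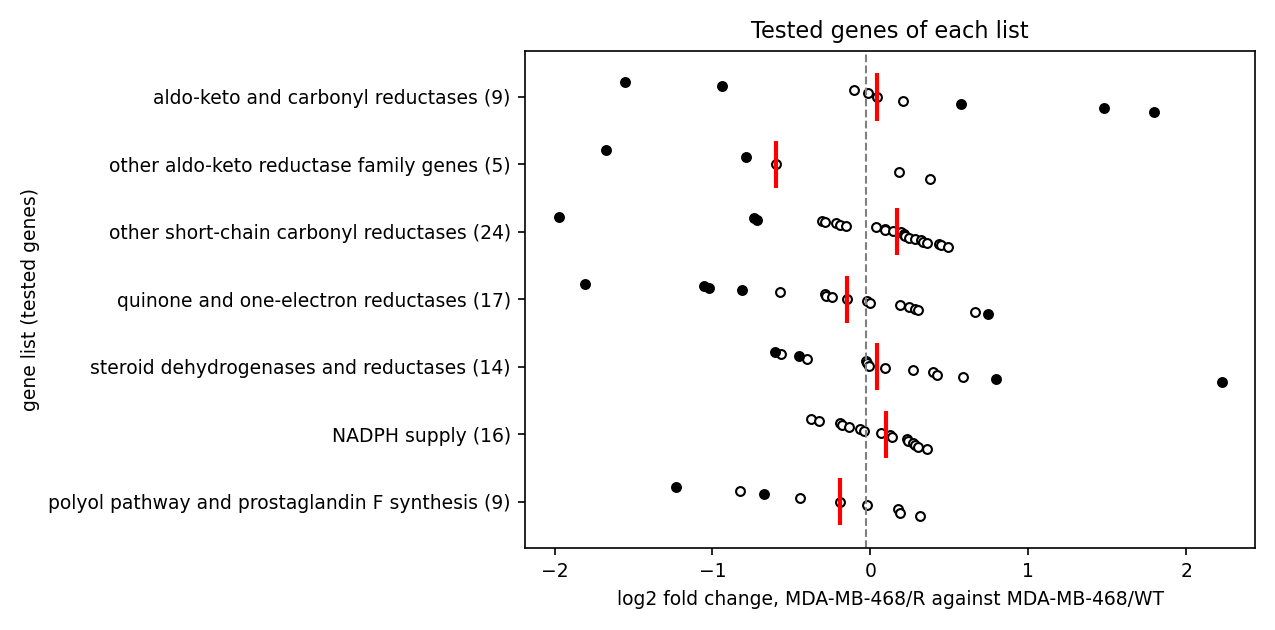
Log2 fold change of each tested gene in the 10 reductases and 6 related lists, filled where the adjusted p was at most 0.05, with a red bar at each list's median and a dashed line at the median of all tested genes (-0.03). List medians lie between -0.60 and 0.17, and the reductases spread from -1.56 to 1.80.

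The fold changes of the 5 called reductases moved little with the processing. Over 13 alternatives AKR1C1 lay between 1.70 and 1.86, AKR1C2 between 1.43 and 1.53, AKR7A2 between 0.51 and 0.65, CBR3 between -1.04 and -0.75 and AKR1B1 between -1.69 and -1.43 on the log2 scale. No direction among these 5 changed. None of the 5 calls was lost under the other scalings, filters or pseudocounts, and all 5 were lost when either WT library was left out.

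**Figure D5:**
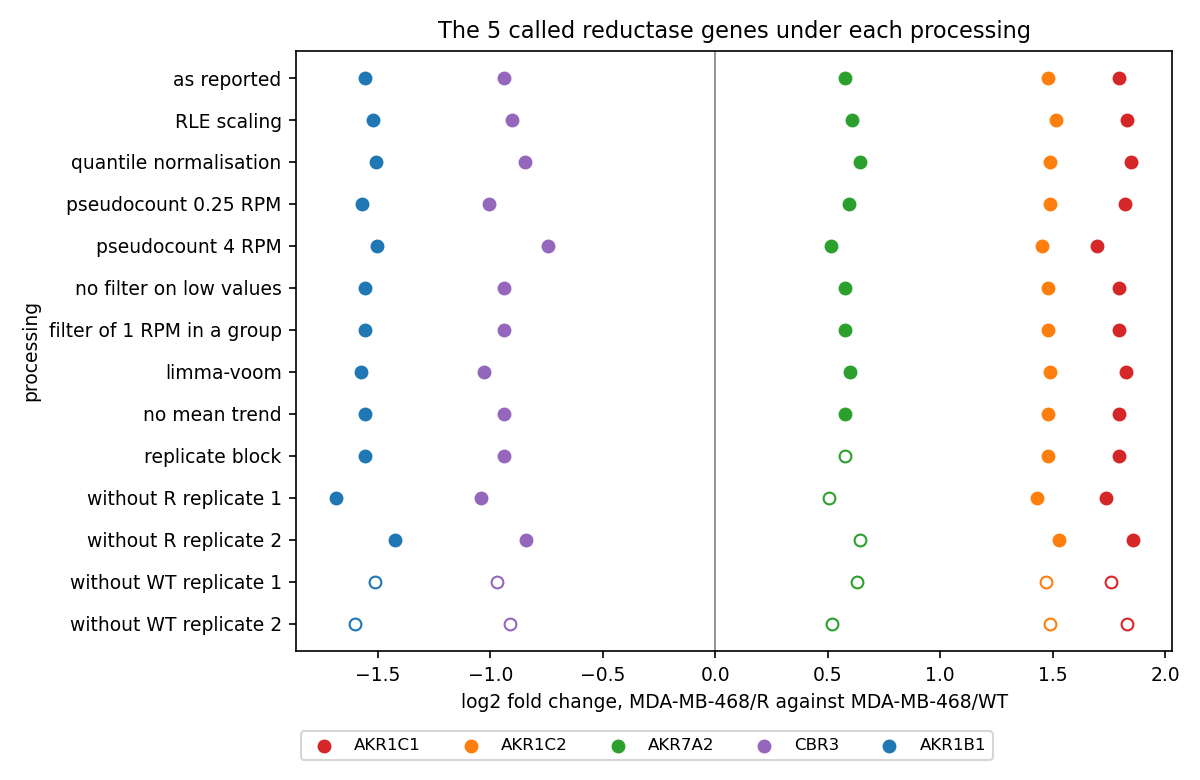
Log2 fold change of AKR1C1, AKR1C2, AKR7A2, CBR3 and AKR1B1 as reported and under 13 alternatives, filled where the adjusted p was at most 0.05. Points of a gene keep their side of 0 throughout, and all 5 are open in both rows that leave out an WT library.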

How the data were processed

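Total RNA of 2 R and 2 WT libraries of MDA-MB-468 was read with the Ion AmpliSeq Transcriptome kit, a strand-specific assay with a single short amplicon per gene. For the work of the authors, the methods name the Torrent Mapping Alignment Program and DEGSeq, while the notes the submitters gave on processing list Bowtie2, bedtools and edgeR. The genome build is not given in the sources used here. The authors deposited log2(RPM + 1) values with 2 decimals. The size of 1 read was recovered per library from its 20 lowest distinct values. Of values up to 20 reads, 100% were whole within 0.1, but the size was fitted to these same values, so this is no separate check. Reads of abundant genes are approximate, so RPM is given for them.

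limma 3.58.1, under R 4.3.3, compared the groups on the deposited log2 values (moderated variances with a trend on the mean, residual degrees of freedom 2, prior 5.40) on the 12118 genes with at least 10 reads in at least 2 libraries, with Benjamini-Hochberg adjustment over all of them. Calls needed an adjusted p no higher than 0.05, and DEGs also a fold change of at least 2.5. A gene with few reads in both libraries of a group could pass this filter through the other group alone. AKR1E2, AOX1 and CDH5, with fewer than 10 reads in each R library, passed through WT cells alone, so a call of them could only be lower. A log2(RPM + 1) fold change understates the change of low genes. The fit was tested on simulated data. edgeR and DESeq2 were not used here. Python 3.11.15 with SciPy 1.17.1 gave exact tests and Biopython 1.88 alignments. Intervals on reads and the floor of 3 reads cover counting error only, since PCR reads carry no molecular identifiers.

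The members and lists were chosen with earlier results of these data known. All members are named, with up to 4 called genes of each other list by size of change, the 3 nearest profiles and the 5 tested neighbours on each side of a called member. TXNRD1, CYB5R3, AKR1C4, AKR7A3, SORD and ME1 were named after their values were seen. Alternatives were RLE scaling, quantile normalisation, 0.25 and 4 RPM added, no filter, a filter of 1 RPM in a group, limma-voom, no mean trend, the replicate block and each library left out.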

Additional observations from a re-analysis of the deposited data

How the results depend on the processing

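With either MDA-MB-468/WT library left out, 0 of the 10 reductases were called higher and 0 lower. With each library left out in turn, the number called higher ran from 0 to 2 and the number called lower from 0 to 2. In these fits the lone library of a group is assumed to vary like the other group, and fewer genes of the whole table were called, 11 higher and 52 lower without WT replicate 1 and 9 and 48 without WT replicate 2. Under RLE scaling, quantile normalisation, both other pseudocounts, both other filters, limma-voom and no mean trend, 3 were higher and 2 lower, as reported. The sample titles tie same-numbered libraries by a number alone, and whether they shared a run or preparation is not known here. The correlation of their deviations was 0.00868. With the replicate block 2 were higher and 2 lower, since AKR7A2 then had a limma adjusted p of 0.0526. Of 27 other called genes of the lists and neighbours, 24 to 27 kept the call in the alternatives that used all libraries, 21 and 20 without R replicate 1 and 2, and 2 without either WT replicate. None of these 27 or of the 5 called reductases changed direction. With the replicate block, 1 steroid dehydrogenase was lower in place of 2, and CHAF1B had a limma adjusted p of 0.0663. Of 156 counts of the 6 related lists, 124 stayed within 1.5 times and 32 did not, 23 of these with a library left out. The AKR1C1 to AKR1C2 ratio moved to 0.244 with 4 RPM added. Depth limits AKR1C3, at 2 to 8 reads per library.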
